A study of Mus musculus with 16 samples.

Results

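RNA levels were compared between ADAP-deficient (Adap-/-) and WT mouse peritoneal macrophages after LPS, in the libraries sequenced without antibody capture. The libraries were chosen by their labels as the input libraries of LPS-treated cells, which are 4 of the 16 libraries of the series, 2 from Adap-/- and 2 from WT macrophages. The study asks how the loss of ADAP acts on the response of macrophages to LPS and on m6A, a methyl mark of mRNA. For each replicate it sequenced an input library and a library captured with an m6A antibody, which is not used here. Both genotypes were on the C57BL/6 background, as sex-matched littermates aged 6 to 8 weeks. The cells were washed from the peritoneal cavity 3 days after thioglycolate, an irritant that draws monocytes into the cavity, and were kept in RPMI culture. The LPS-treated groups received 1 µg/ml LPS for 6 h, and the mock groups, used below for comparison, received none. The deletion was present in the whole animal and not in macrophages alone.

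ADAP, the product of Fyb1, is an adapter protein without enzyme activity that links immune receptors to integrin activation and to the actin skeleton, and it is best known in T cells, platelets and myeloid cells. LPS is sensed by TLR4, with CD14 and MD-2, and signals along a MyD88 branch and a TRIF branch. The first drives NF-kB and genes such as Tnf, Il1b and Cxcl2, while the second induces type I interferon, whose autocrine action switches on a large set of antiviral genes.

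The deposited table counts reads on m6A peaks and not on whole transcripts, so a gene is seen here only through its peaks, and genes without a peak are missing. Reads on distinct peaks numbered 4221505 and 3432746 in the Adap-/- LPS libraries and 4325961 and 3595589 in the WT LPS libraries. In the mock libraries they numbered 2121313 and 2333347 for Adap-/- and 2274830 and 2190219 for WT. Input reads were summed over the peaks of each gene and are given as TMM-scaled CPM (read counts relative to a common library size). In each pair of values the first is replicate 1 and the second replicate 2. Of 4943 genes with a peak, 4742 had enough reads to be tested, and 1270 of those shared at least 1 peak with another gene, so that their reads cannot be assigned to 1 gene with certainty. Log2 fold changes are Adap-/- over WT, with adjusted p-values from edgeR, and a gene is called higher or lower where its adjusted p was below 0.05. The labels do not say whether replicates came from separate animals or cultures, so the p-values measure only the spread between these libraries. Across the 4742 genes, the Spearman correlation between replicates was 0.990 in both LPS groups.

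Fyb1 (ENSMUSG00000022148, chromosome 15) had 41.5 and 35.7 CPM in the Adap-/- LPS libraries and 349 and 377 CPM in the WT LPS libraries. Both Adap-/- libraries lay far below both WT libraries, and the log2 fold change was −3.22, SE 0.13, adjusted p = 5.63e-10. The table lists 4 peaks on Fyb1, and they did not share this loss equally. The peak that starts at 6609828, in the coding sequence, had 0.282 and 0 CPM in Adap-/- and 192 and 214 CPM in WT macrophages. On the next coding peak, which starts at 6610303, the levels were 1.41 and 0.729 CPM against 98.8 and 94.3 CPM. On both peaks the Adap-/- libraries were close to 0. The last peak, shared with ENSMUSG00000089647, kept 39.5 and 33.9 CPM in Adap-/- against 57.8 and 66.5 CPM in WT macrophages. Most of the Fyb1 reads left in Adap-/- macrophages therefore lay on this shared peak, and the first peak was at or below 1.81 CPM in the 4 LPS libraries. Without LPS, Fyb1 had 46.7 and 36.9 CPM in Adap-/- and 244 and 257 in WT cells, again without overlap.

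The label of the cells was checked against marker genes. Of 26 macrophage identity genes, 23 had a peak, and their summed level was 57133 and 57876 CPM in Adap-/- and 69994 and 70592 CPM in WT macrophages. Ctsb, a lysosomal protease, had the most reads, with 17508 and 16595 CPM in Adap-/- and 21084 and 23046 in WT cells. Cd68, a lysosomal membrane protein of macrophages, had 3573 and 3735 CPM in Adap-/- and 4086 and 4215 in WT cells, and Csf1r, the receptor for M-CSF, whose peak is shared with another gene, had 24.5 and 21.9 CPM in Adap-/- and 20.5 and 22.0 in WT cells. The macrophage genes were thus read in all 4 libraries, while Adgre1, which encodes F4/80, was low with 14.1 and 15.3 CPM in Adap-/- and 9.01 and 6.14 in WT cells. None of the 14 B cell, 8 eosinophil, 11 mast cell and basophil, 10 platelet, 8 erythroid or 13 mitochondrially encoded genes had a peak, which leaves them unmeasured and not absent.

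Other cell types were read through a few genes each. Of 18 neutrophil markers, Csf3r was the one measured, with 369 and 388 CPM in Adap-/- and 306 and 369 in WT cells, and it was not called (log2 fold change 0.17, adjusted p = 0.330). Among 22 T and NK cell markers, Il7r alone was tested, at 1347 and 1242 CPM in Adap-/- and 1646 and 1758 in WT cells, and it was called lower, −0.39, adjusted p = 0.0174, both Adap-/- libraries being below both WT libraries. Il7r lost its call without any 1 of the LPS libraries, the highest adjusted p being 0.182. Ccr7, the 1 of 12 dendritic cell markers with a peak, had 32.7 and 46.3 CPM in Adap-/- and 27.7 and 56.0 in WT cells, with overlap between the genotypes. Macrophages can express these 3 genes as well. Of 20 fibroblast and mesothelium markers 5 were tested, with summed levels of 181 and 142 CPM in Adap-/- and 82.3 and 128 CPM in WT macrophages. Pdgfra, the one with the most reads, had 70.8 and 37.5 CPM in Adap-/- and 35.1 and 67.2 in WT cells and overlapped, whereas Pdgfrb was called higher with 61.8 and 83.1 CPM in Adap-/- and 29.2 and 22.8 in WT cells and a log2 fold change of 1.46, adjusted p = 3.69e-04. The part of such cells in the results was not tested.

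Peritoneal macrophages are a mixture of long-lived resident cells and cells that come from blood monocytes. Of 18 resident markers 6 were tested, and Prg4, Ltbp1 and Cd5l were called higher, none lower (0 lower also at an unadjusted p below 0.05, and 1 higher and 0 lower by DESeq2). Over all tested genes 6.03% were called higher and 9.78% lower, which is the background for these markers and the recruited ones below. Cd5l, a secreted scavenger receptor, had 147 and 165 CPM in Adap-/- and 108 and 121 in WT cells, and both Adap-/- libraries lay above both WT libraries (0.44, adjusted p = 0.0233). The summed level of the list, 6180.1 and 6445 CPM against 7209 and 6408 CPM, went the other way because F10 (coagulation factor X) made up most of it with 5803 and 5813 CPM in Adap-/- and 7027 and 6225 in WT cells. Of 17 recruited markers 4 were tested, with sums of 919.6 and 1069 CPM and 913 and 974 CPM. Among them Itga4 (0.75, adjusted p = 0.00129) and Hp, the haptoglobin gene (0.60, adjusted p = 0.0252), were higher in both Adap-/- libraries than in both WT libraries, and Cx3cr1, whose peaks are shared, was lower in both (−0.41, adjusted p = 0.00650) in the sum of its 2 peaks, which gave log2 ratios of 0.14 and −0.65, the latter on the peak of Csrnp1. Leaving out 1 library ended several of these calls. For Cd5l the log2 fold change was 0.36 without Adap-/- replicate 2 (adjusted p = 0.175) and 0.36 without WT replicate 1 (adjusted p = 0.193), for Hp 0.31 without Adap-/- replicate 2 (adjusted p = 0.344) and 0.47 without WT replicate 1 (adjusted p = 0.216), and for Cx3cr1 −0.39 without Adap-/- replicate 1 (adjusted p = 0.0549) and −0.38 without WT replicate 1 (adjusted p = 0.0631). Ltbp1 gave 1.22 without Adap-/- replicate 2 (adjusted p = 0.130) and 1.27 without WT replicate 1 (adjusted p = 0.145). In bulk RNA, fewer cells of a type and less RNA per cell cannot be told apart, and the share of resident cells in each library was not tested. The sex-linked list was read through Kdm5d, a Y-linked gene, at 11.3 and 6.93 CPM in Adap-/- and 7.15 and 6.51 in WT cells, with overlap.

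After LPS, 286 genes (6.03% of those tested) rose past the test in Adap-/- macrophages relative to WT and 464 (9.78%) fell, together 750 (15.8%). A change above 2-fold was found for 64 higher genes (1.35%) and 55 lower genes (1.16%). The median log2 fold change over all tested genes was −0.01, and the median size of the change, without its sign, was 0.26. Both Adap-/- libraries lay above both WT libraries for 1271 genes and below them for 1413. Single libraries moved the number of calls. Without Adap-/- replicate 2, 124 and 230 genes were called higher and lower, without WT replicate 1 141 and 244, without Adap-/- replicate 1 224 and 295 and without WT replicate 2 175 and 334. Above 2-fold, 37 genes were higher without Adap-/- replicate 2. DESeq2 called 172 genes higher and 342 lower, of which 171 and 339 were among those called by edgeR.

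Called genes were spread unevenly over the range of levels. The genes were split into 4 equal groups by mean level, and in the lowest group, up to 13.8 CPM, 26 genes were higher and 12 lower. The group with the highest levels, from 115 CPM up, held 108 higher and 292 lower genes, and its median log2 fold change was −0.11 against 0.09 in the lowest group. A shared peak was present in 66 of the 286 higher and 141 of the 464 lower genes, against 1270 of all 4742 tested genes.

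**Figure D1:**
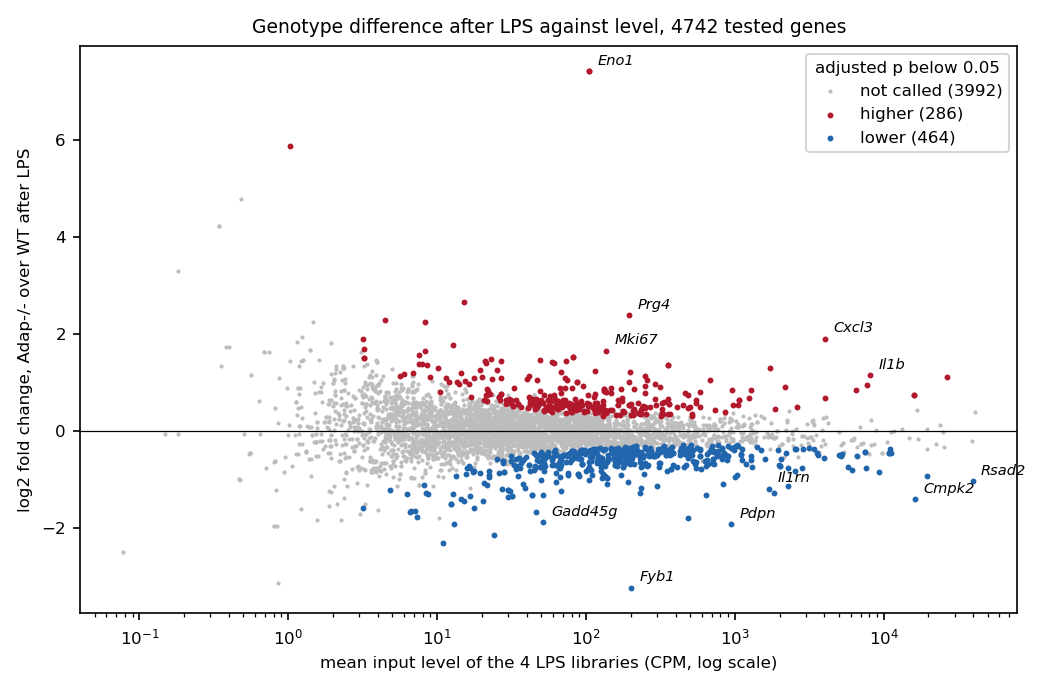
Log2 fold change of Adap-/- over WT macrophages after LPS (y axis) against mean CPM on a log axis (x axis), 1 point per tested gene, with called genes in colour. The 286 higher and 464 lower genes lie on both sides of 0, and the lower ones are most frequent at high levels.

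Genes are described in full below where they belong to the 14 highest or lowest ranked called genes, to the lists or to the genes that the study names. Unless the text gives a loss, a gene printed with an adjusted p below 0.05 after LPS kept its call with each of the 8 input libraries left out in turn. This does not hold for all genes named without one: Fpr2, Cfb, Vegfa, Treml2 and ENSMUSG00000089647, for instance, lost the call without 1 or more LPS libraries. Calls were gained as well. Adgre1, Ctsb, Cxcl10, Gpnmb, Nos2, Sirpa and Tnfaip3 were not called but passed without WT mock replicate 1 and without WT mock replicate 2, and when the LPS libraries were fitted alone. The median log2 fold change of a list is followed in square brackets by its lowest and highest value under the other settings, left-out libraries included. Replicates named without the word mock are LPS libraries. The gene with the most reads of a list is the one with the highest mean CPM over all 8 input libraries. The following genes do not meet these rules and were chosen after their values were seen: Adgre1, Cd68, Csf1r, Nos2, Ptgs2, Saa3, Fpr2, Cfb, Il15ra, Mertk, Spi1, Tyrobp, Gadd45a, Isg15, Ifit1 (ENSMUSG00000034459), Ifit2, Mx1, Ifih1, Irf7, Il12b, Csf3, Il1a, Il15, Tnfsf10, Ccl2, Ccl3, Ccl5, Ccl9, Cxcl10, Ptk2b, Cd300a, Cd33 and Clec5a, and all genes named without a value.

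After Fyb1 itself, the genes with the strongest loss came from varied functions. Pdpn (ENSMUSG00000028583, chromosome 4), which encodes podoplanin, a mucin-type glycoprotein that binds CLEC-2, had 416 and 376 CPM in Adap-/- and 1434 and 1546 in WT cells. Both WT libraries lay far above both Adap-/- libraries, with a log2 fold change of −1.91, SE 0.10, adjusted p = 8.07e-09. Lrrc32 (ENSMUSG00000090958, chromosome 7), which encodes GARP, an anchor of latent TGF-beta at the cell surface, had 8.18 and 9.84 CPM in Adap-/- and 42.6 and 35.8 in WT cells, a log2 fold change of −2.13, SE 0.30, adjusted p = 2.41e-04. Gadd45g (ENSMUSG00000021453, chromosome 13), a stress-induced regulator of growth arrest, had 23.1 and 20.4 CPM in Adap-/- and 86.1 and 75.2 in WT cells and fell in the same way (−1.88, SE 0.15, adjusted p = 4.53e-06). A related gene, Gadd45a, went up instead, with 165 and 159 CPM in Adap-/- and 66.2 and 71.6 in WT cells and 1.23, adjusted p = 7.00e-06.

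Genes at lower levels made up most of the other ranked losses. Zfp54 (ENSMUSG00000063245), a zinc-finger gene that the table also describes as Zfp993, had 3.67 and 3.65 CPM in Adap-/- and 18.3 and 18.1 in WT cells (−2.30, SE 0.34, adjusted p = 3.21e-04). ENSMUSG00000007682 had 5.92 and 4.74 CPM in Adap-/- and 21.1 and 19.9 in WT cells (−1.92, SE 0.23, adjusted p = 7.53e-05). In both genes both Adap-/- libraries were again below both WT libraries. Anxa1 (annexin A1, an inhibitor of inflammation) shares its only peak with ENSMUSG00000094732, and the pair had 7.62 and 5.10 CPM in Adap-/- and 15.2 and 21.7 in WT cells, a log2 fold change of −1.49, SE 0.31, adjusted p = 0.00431. GNG11, Sh3bp5l, Sema4c and ENSMUSG00000094796 were lower as well, with log2 fold changes of −1.58, −1.77, −1.65 and −1.64 and the same order of the genotypes. Sh3bp5l lost its call without Adap-/- replicate 2, Sema4c without Adap-/- replicate 1 or WT replicate 2, and ENSMUSG00000094796 without any 1 of the LPS libraries, with values of −1.42 (adjusted p = 0.0530), −1.39 (adjusted p = 0.0880), −1.31 (adjusted p = 0.0972) and an adjusted p of up to 0.169.

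**Figure D2:**
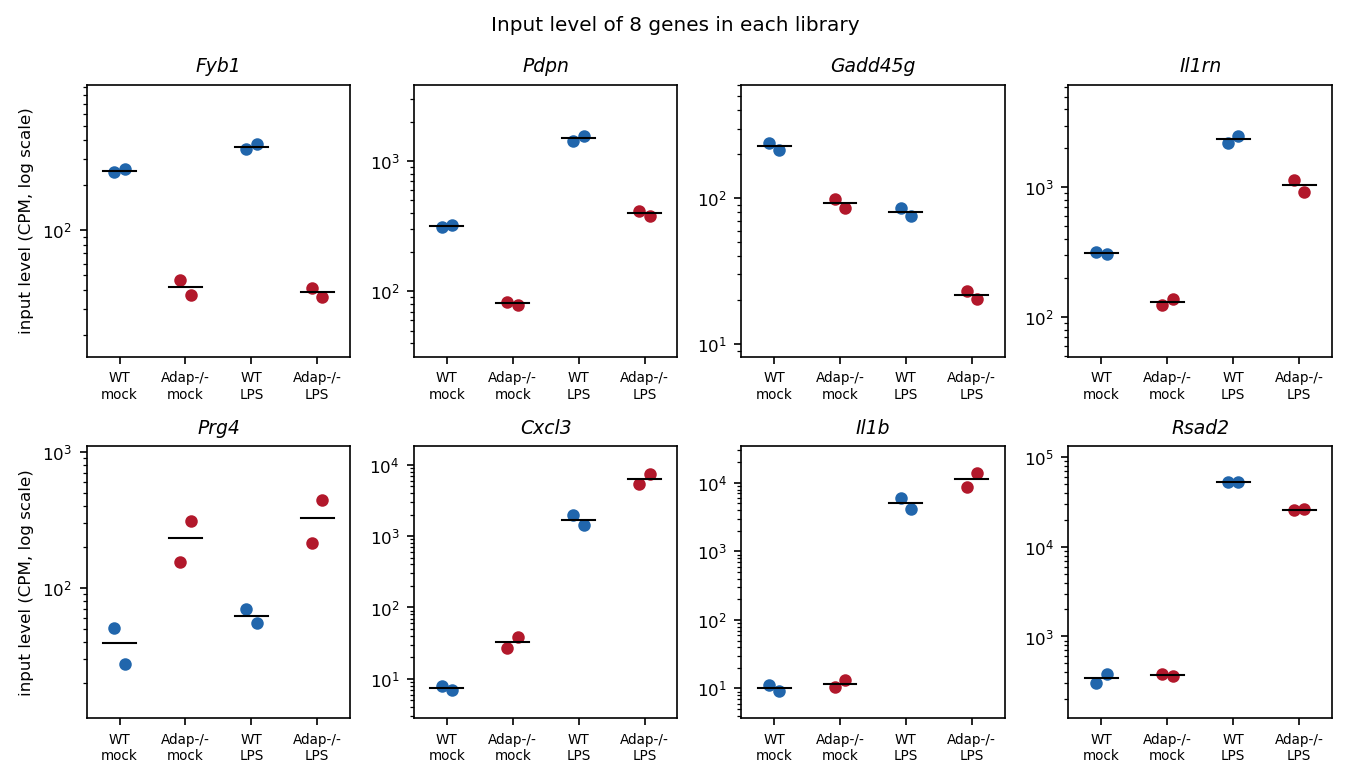
Level of 8 genes in each input library, with and without LPS (CPM, log axis), with dots for libraries and a line for the mean of each genotype. After LPS, Fyb1, Pdpn, Gadd45g, Il1rn and Rsad2 lie lower in both Adap-/- libraries than in both WT libraries, while Prg4, Cxcl3 and Il1b lie higher.

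Among the higher genes, the first place was shared by Eno1 and ENSMUSG00000118267, which have their only peak in common. That peak had 104 and 313 CPM in Adap-/- and 1.24 and 1.08 in WT cells, so the WT libraries were close to 0 and the Adap-/- replicates differed widely from each other. The log2 fold change was 7.42, SE 0.87, adjusted p = 5.55e-05, and the reads cannot be assigned to either gene. Adgb, which encodes androglobin, followed with 21.2 and 31.0 CPM in Adap-/- and 3.42 and 4.70 in WT cells and 2.67, SE 0.37, adjusted p = 2.18e-04. Prg4 (ENSMUSG00000006014, chromosome 1), the gene for lubricin, a secreted glycoprotein made by resident peritoneal macrophages, had 215 and 445 CPM in Adap-/- and 69.6 and 54.6 in WT cells. The genotypes did not overlap, and in Adap-/- cells replicate 2 held more than replicate 1 (2.40, SE 0.35, adjusted p = 3.09e-04). ZNF20 (ENSMUSG00000055202), a zinc-finger gene, had 14.4 and 12.8 CPM in Adap-/- and 2.18 and 3.61 in WT cells, with 2.24, adjusted p = 0.00195.

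Mki67, a marker of cycling cells, was higher as well, with 164 and 252 CPM in Adap-/- and 72.1 and 58.6 in WT cells (1.66, SE 0.18, adjusted p = 2.86e-05). Phlda1, which shares its peaks with ENSMUSG00000100113, had 127 and 115 CPM in Adap-/- and 41.3 and 42.7 in WT cells (1.53, SE 0.14, adjusted p = 5.36e-06). In both genes the Adap-/- libraries lay above the WT libraries. Lif, a cytokine of the IL-6 family, had 28.2 and 39.4 CPM in Adap-/- and 12.4 and 11.6 in WT cells (1.48, SE 0.27, adjusted p = 0.00186). Ednrb, an endothelin receptor, had 11.8 and 10.9 CPM in Adap-/- and 5.28 and 2.17 in WT cells and no overlap (1.57, adjusted p = 0.0136), and its log2 fold change was 1.51 without Adap-/- replicate 1 (adjusted p = 0.0652) and 1.11 without WT replicate 2 (adjusted p = 0.124). The other ranked genes, Cxcl3, Pdgfrb and Ltbp1, are described with their lists.

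Where a gene had several peaks, the direction could be compared between them. The 3 peaks of Pdpn gave log2 ratios of mean CPM between −1.97 and −1.68. On the 4 peaks of Prg4 the ratios were between 2.27 and 2.55, and on the 7 of Mki67 between 1.25 and 2.63, the highest on a peak with 2 and 9 reads in WT. Among interferon-stimulated genes, the 4 peaks of Mx1 gave −0.77 to −0.72 and the 6 of Irf7 −0.41 to −0.32. These ratios had 1 sign within each gene, and the 4 peaks of Fyb1 differed widely, since the 2 that start at 6609828 and 6610303 lost nearly all their reads. Of 48 named genes with at least 3 peaks, 43 had 1 sign on all of them. The others were Wtap (−0.30 to 0.41, without a peak of at most 3 reads per LPS library), Ythdc1 (−0.12 to 0.70), Zeb2 (−0.66 to 0.25), Sirpa (−0.24 to 0.37) and Tmsb4x (−0.29 to 0.02), and none of these was called. Peaks of 1 transcript come from the same RNA, so they are not replicates.

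**Figure D3:**
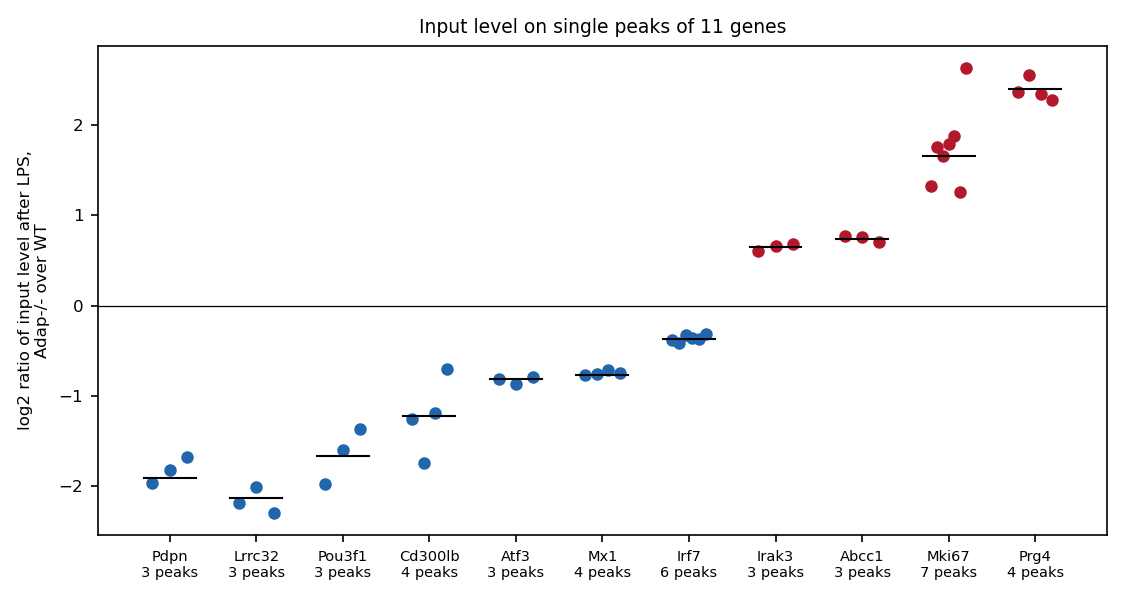
Log2 ratio of Adap-/- to WT mean CPM after LPS for each peak of 11 genes with several peaks, 1 point per peak. The 3 peaks of Pdpn lie between −1.97 and −1.68 and the 4 of Prg4 between 2.27 and 2.55.

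Many interferon-stimulated genes were lower. Of 91 symbols on the list 59 had a peak, and 80 gene IDs were tested. By edgeR, 27 of the 80 (33.8%) were called lower, against 9.78% of all tested genes, 53 were not called and 0 were called higher (0 also at an unadjusted p below 0.05 and by DESeq2, which called 18 lower). Of the 80, 63 are in the group with the highest levels, and 24 of those (38.1%) were lower, against 24.6% of all genes in that group. The median log2 fold change of the 80 was −0.31, against −0.01 over all tested genes. Both Adap-/- libraries lay below both WT libraries for 61 of the 80, against 1413 of all 4742 tested genes. In the group with the highest levels this held for 51 of the 63, against 592 of all 1186 genes there. The summed level of the list was 224586 and 217293 CPM in Adap-/- and 323244 and 323250.0 CPM in WT macrophages, and the replicates of each genotype lay close together. The median stayed between −0.33 and −0.26 under the settings tried. The number of lower genes was 13 without Adap-/- replicate 2, 15 without WT replicate 1, 16 without WT replicate 2 and 18 without Adap-/- replicate 1.

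Several of the best known antiviral genes were among them. Rsad2, the gene for viperin, had the most reads of the list, with 25973 and 26165 CPM in Adap-/- and 53536 and 52719 in WT cells. The replicates lay close together in each genotype and far apart between them (−1.03, SE 0.14, adjusted p = 1.91e-04). Cmpk2, which lies beside Rsad2 and encodes a nucleotide kinase, had 8955 and 9013 CPM in Adap-/- and 23629.9 and 23802 in WT cells (−1.40, SE 0.14, adjusted p = 1.29e-05). Isg15, a ubiquitin-like modifier, had 4230.3 and 4356 CPM in Adap-/- and 7446 and 6967 in WT cells (−0.75, SE 0.11, adjusted p = 2.84e-04). Both genes showed no overlap. Ifit1 (ENSMUSG00000034459), which binds viral RNA, had 6525 and 6792 CPM in Adap-/- and 11632 and 12347 in WT cells (−0.85, adjusted p = 0.00142), and the neighbouring Ifit2 had 13694 and 13339 CPM in Adap-/- and 24375 and 26890.4 in WT cells (−0.92, adjusted p = 0.00249). The gene listed as Ifit3 under ENSMUSG00000062488, described as Ifit3b, had 427 and 310.2 CPM in Adap-/- and 955 and 874 in WT cells (−1.31, adjusted p = 7.28e-06). In each of these genes the Adap-/- libraries were below both WT libraries.

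Mx1, a GTPase that blocks influenza virus, had 5694 and 5499.9 CPM in Adap-/- and 8720.4 and 10338 in WT cells (−0.77, adjusted p = 0.00168), and Ifih1, the RNA sensor MDA5, had 537 and 545 CPM in Adap-/- and 726 and 780.0 in WT cells (−0.48, adjusted p = 0.00250). Irf7, the factor that amplifies interferon production, had 10327 and 9072 CPM in Adap-/- and 12587 and 12395 in WT cells and was only just called (−0.36, adjusted p = 0.0449). All 3 showed both Adap-/- libraries below both WT libraries. The call of Irf7 was lost without any 1 of 6 libraries, with an adjusted p of up to 0.328.

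Promoters of 3 of the lower interferon-stimulated genes are shown because such genes are known targets of the interferon-stimulated response element (ISRE), bound by ISGF3 and IRF factors. They are from RefSeq, build GRCm38.p6, whereas the coordinates of the deposited table follow GRCm39. Rsad2 is at chr12:26456453-26456602 on the minus strand, Isg15 at chr4:156200819-156200968 on the minus strand and Ifit1 at chr19:34640739-34640888 on the plus strand. Each is given 5′ to 3′ on the strand of the gene, with matches to GAAANNGAA on either strand in capitals.
Rsad2: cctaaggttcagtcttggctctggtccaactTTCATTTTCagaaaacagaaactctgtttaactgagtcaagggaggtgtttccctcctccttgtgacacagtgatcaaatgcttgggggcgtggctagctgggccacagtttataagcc
Isg15: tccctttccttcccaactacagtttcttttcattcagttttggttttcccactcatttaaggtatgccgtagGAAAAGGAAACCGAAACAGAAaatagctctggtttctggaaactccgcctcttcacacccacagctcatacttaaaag
Ifit1: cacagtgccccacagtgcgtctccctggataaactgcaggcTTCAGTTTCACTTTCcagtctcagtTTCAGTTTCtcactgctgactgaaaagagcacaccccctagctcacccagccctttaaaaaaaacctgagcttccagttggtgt
Rsad2 has 1 match in this window, and Isg15 and Ifit1 have 3 each, which overlap in part. The motif was searched on both strands in the 300 bases around each start site. It was present in 22 of the 39 interferon-stimulated genes with a promoter in the table (56.4%), in 9.43% of the 3191 tested genes with one and in 8.56% of all 32851 promoters. Among those 39, it was found in 8 of 16 genes called lower and in 14 of 23 genes that were not called, so its presence did not follow the call. A match is a description of the letters only.

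Inflammatory cytokines moved in both directions. Of 31 on the list 21 were tested, 6 were called higher (28.6%) and 6 lower (28.6%), against 6.03% and 9.78% of all tested genes. The median log2 fold change was 0.22 [0.07, 0.46]. It was 0.07 without WT replicate 2, 0.08 without Adap-/- replicate 2 and 0.46 without WT replicate 1. Il1b, the gene for interleukin-1 beta, 1 of whose 2 peaks is shared, had 8610.3 and 13803 CPM in Adap-/- and 5981 and 4127 in WT cells. Both Adap-/- libraries lay above both WT libraries, with a wide spread in each genotype (1.15, SE 0.20, adjusted p = 0.00101). Il12a, which encodes the p35 subunit of interleukin-12, had 2509 and 3188 CPM in Adap-/- and 1799 and 1214 in WT cells (0.92, adjusted p = 0.00239), and Il12b, its p40 partner, had 266 and 276 CPM in Adap-/- and 177 and 117 in WT cells (0.87, adjusted p = 0.00110). Csf3, the gene for G-CSF, had 150.4 and 188 CPM in Adap-/- and 103 and 86.4 in WT cells (0.83, adjusted p = 9.57e-04). These 3 were also without overlap. Il1a, whose peaks are shared with another gene, had 16981 and 23106 CPM in Adap-/- and 13971 and 9824 in WT cells (0.75, adjusted p = 0.00677), and its log2 fold change was 0.51 without Adap-/- replicate 2 (adjusted p = 0.116) and 0.52 without WT replicate 2 (adjusted p = 0.0813). Lif is the last of the 6.

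The strongest loss in this list was that of Il1rn, which encodes the interleukin-1 receptor antagonist, the natural blocker of interleukin-1. It had 1146 and 927 CPM in Adap-/- and 2217 and 2492 in WT cells, with both Adap-/- libraries below both WT libraries (−1.18, SE 0.12, adjusted p = 1.07e-05). Il1b and its antagonist thus changed in opposite directions. Il15 had 475 and 495 CPM in Adap-/- and 879 and 719 in WT cells (−0.72, adjusted p = 9.76e-04), and Tnfsf10, the gene for TRAIL, had 53.9 and 52.9 CPM in Adap-/- and 98.5 and 96.1 in WT cells (−0.87, adjusted p = 0.00347). Both were without overlap. Vegfa, Edn1 and Tnfsf12 were the other lower genes.

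Tnf and Il6, which the study names, were not called with all libraries in the fit. Tnf, the cytokine with the most reads, had 40385 and 52957 CPM in Adap-/- and 40000.0 and 30516 in WT cells, where the lower Adap-/- library was just above the higher WT library (0.40, SE 0.17, adjusted p = 0.135). Il6 had 1562 and 1892 CPM in Adap-/- and 1758 and 1083 in WT cells, with overlap (0.28, SE 0.17, adjusted p = 0.312), and its result depended on the WT libraries, with −0.02 (adjusted p = 0.945) without WT replicate 2 and a call of 0.67 (adjusted p = 0.0147) without WT replicate 1. Tnf passed without WT mock replicate 1, at 0.42 (adjusted p = 0.0484), without WT mock replicate 2, at 0.42 (adjusted p = 0.0451), and with the LPS libraries fitted alone (0.42, adjusted p = 0.0348), while it was 0.20 and 0.22 without Adap-/- or WT replicate 2 and 0.59 and 0.61 without Adap-/- or WT replicate 1, with no call. For Il1b, Tnf, Il12a, Il1a and Cxcl2, Adap-/- replicate 2 was above replicate 1 and WT replicate 1 above replicate 2. The summed level of all 21 cytokines followed the same order, with 76903 and 102717 CPM in Adap-/- and 72315 and 55316 CPM in WT macrophages. The replicates therefore spread in these genes by amounts that approach the difference between the genotypes for Tnf.

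Chemokines and their receptors had calls of either sign. Of 35 chemokines and chemokine receptors 17 were tested, and the median was −0.29. Of these, 3 were called higher (17.6%) and 7 lower (41.2%), against 6.03% and 9.78% of all tested genes. The 3 higher genes are CXC chemokines that attract neutrophils. Cxcl3 had 5391 and 7303 CPM in Adap-/- and 1962 and 1424 in WT cells (1.91, SE 0.17, adjusted p = 5.36e-06). Cxcl2 had 30536 and 42279 CPM in Adap-/- and 20441 and 13219.8 in WT cells (1.11, SE 0.21, adjusted p = 0.00224). Cxcl1 had 6453 and 10295 CPM in Adap-/- and 5855 and 3439.6 in WT cells (0.85, SE 0.22, adjusted p = 0.0138). The genotypes did not overlap in these genes, but the call of Cxcl1 rested on single libraries, with 0.47 without Adap-/- replicate 2 (adjusted p = 0.227) and 0.52 without WT replicate 2 (adjusted p = 0.144). Ccl3, at 17189 and 21523 CPM in Adap-/- and 16072 and 12547 in WT cells, missed the call (0.44, adjusted p = 0.0565) but passed under 10 of 16 other settings, among them without Adap-/- replicate 1, at 0.59 (adjusted p = 0.0368), without WT replicate 1, at 0.62 (adjusted p = 0.0327), and without either WT mock replicate. Ccl5, at 13191 and 13748 CPM in Adap-/- and 13307 and 12806 in WT cells, lay level between the genotypes (0.04, adjusted p = 0.869). Cxcl10, an interferon-induced chemokine with shared peaks, had 8726 and 7693 CPM in Adap-/- and 11581 and 10878 in WT cells and was not called (−0.45, adjusted p = 0.146). Without LPS, Cxcl3 (2.13, adjusted p = 2.31e-04) and Cxcl2 (1.11, adjusted p = 0.00523) were called higher by edgeR too, and Cxcl1 was not called. The mock call of Cxcl2 was lost without Adap-/- mock replicate 2.

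Most lower genes of this list were CC chemokines and their receptors, which act on monocytes. Ccr1, a receptor for CCL3 and CCL5, had 98.5 and 85.3 CPM in Adap-/- and 166 and 173 in WT cells (−0.88, adjusted p = 2.86e-04). Ccl2, whose peak is shared, had 1682 and 1356 CPM in Adap-/- and 2527 and 2503 in WT cells (−0.73, adjusted p = 0.00213), and Ccl9 had 101 and 97.3 CPM in Adap-/- and 149 and 168 in WT cells (−0.67, adjusted p = 8.87e-04). In all 3 both Adap-/- libraries were below both WT libraries. Ccl7 and Cxcl16 were lower as well, and Cx3cr1 through the peak it shares with Csrnp1. The list held 2 higher and 4 lower without Adap-/- replicate 2 and 4 higher and 4 lower without WT replicate 1. The median of the list changed sign between settings, from −0.39 to 0.06.

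The promoters of the 3 higher CXC chemokine genes are shown because they moved together and are known targets of NF-kB. They are from RefSeq, build GRCm38.p6, and all lie on the plus strand of chromosome 5, Cxcl1 at chr5:90891095-90891244, Cxcl2 at chr5:90903749-90903898 and Cxcl3 at chr5:90785951-90786100. Capitals mark matches to GGGANNTTC, a core of the NF-kB motif, on either strand.
Cxcl1: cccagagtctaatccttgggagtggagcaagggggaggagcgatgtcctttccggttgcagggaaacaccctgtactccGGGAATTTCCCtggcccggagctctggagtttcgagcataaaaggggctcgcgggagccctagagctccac
Cxcl2: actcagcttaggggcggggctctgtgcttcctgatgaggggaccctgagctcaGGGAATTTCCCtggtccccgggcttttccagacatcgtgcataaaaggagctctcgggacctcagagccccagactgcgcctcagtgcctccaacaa
Cxcl3: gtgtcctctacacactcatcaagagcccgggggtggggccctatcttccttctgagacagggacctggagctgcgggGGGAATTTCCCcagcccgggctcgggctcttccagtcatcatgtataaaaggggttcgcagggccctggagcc
In each promoter 2 matches on opposite strands overlap and form 1 run of capitals. The motif was present in 7 of the 25 cytokine and chemokine genes with a promoter in the table (28.0%), in 4.54% of the 3191 tested genes with one and in 3.94% of all promoters. It was found in 3 of 8 higher genes of these lists, which are the 3 shown here, and in 0 of 7 lower genes. Those 3 were shown because they moved together, so these counts are not a separate comparison. The other matches were in genes of these lists that were not called. This is a description of few genes and not a test.

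Components of the TLR4 pathway itself had more higher than lower calls. Of 40 genes 23 were tested, 4 were called higher (17.4%, against 6.03% of all tested genes) and 1 lower, with a median of 0.13 [0.07, 0.20]. Tlr4, the LPS receptor, had 60.4 and 62.7 CPM in Adap-/- and 41.3 and 40.5 in WT cells (0.59, adjusted p = 0.00636). Irak3, an inhibitor of the MyD88 branch, had 639 and 705 CPM in Adap-/- and 398 and 459 in WT cells (0.65, adjusted p = 9.21e-04). Cd14, the LPS co-receptor and the gene with the most reads of the list, had 2711 and 3376 CPM in Adap-/- and 2346 and 1978 in WT cells (0.49, adjusted p = 0.0193). In these 3 both Adap-/- libraries were above both WT libraries. Ticam2, the adapter TRAM, was the other higher gene, and Irf5 the lower one, with 605 and 636 CPM in Adap-/- and 851 and 823 in WT cells (−0.43, adjusted p = 0.00636). Cd14 was 0.33 without Adap-/- replicate 2 (adjusted p = 0.236) and 0.38 without WT replicate 2 (adjusted p = 0.160) and Irf5 was −0.40 without Adap-/- replicate 1 (adjusted p = 0.0652) and −0.41 without WT replicate 1 (adjusted p = 0.0556). The list held 3 higher and 0 lower without Adap-/- replicate 1 or WT replicate 1 and 2 higher and 1 lower without WT replicate 2.

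Feedback inhibitors and targets of NF-kB showed no common direction. Of 34 genes 27 were tested, 3 were called higher (11.1%) and 2 lower (7.41%), against 6.03% and 9.78% of all tested genes. The median was 0.05 [−0.01, 0.07]. Ier3, an NF-kB target that restrains cell death, had 676 and 807 CPM in Adap-/- and 471 and 374 in WT cells, all Adap-/- values being above all WT values (0.81, adjusted p = 2.86e-04). Gadd45b had 691 and 628 CPM in Adap-/- and 971 and 919.5 in WT cells, with the opposite order (−0.52, adjusted p = 0.00334; −0.45 without Adap-/- replicate 2 (adjusted p = 0.0572)). Tnfaip3, the gene for A20 and the gene with the most reads of the list, had 4031 and 4501 CPM in Adap-/- and 3430.1 and 3637 in WT cells and was not called (0.27, adjusted p = 0.118). Zc3h12c and Tnfaip2 were the other higher genes and Rnf19b the other lower one. The list held 1 higher and 0 lower without Adap-/- replicate 2, 1 higher and 1 lower without WT replicate 1, 2 higher and 1 lower without WT replicate 2 and 6 higher and 3 lower without WT mock replicate 1 or WT mock replicate 2.

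The same was done for inhibitors of receptor tyrosine kinase, JAK-STAT and MAPK signalling, the class to which Spry1 and Cish belong. Of 38 genes 26 were tested, and 2 were called higher (7.69%). Over all tested genes, 6.03% were higher and 9.78% lower. The 2 were Cbl (0.55, adjusted p = 0.00929) and Dusp6 (0.44, adjusted p = 0.0352), with both Adap-/- libraries above both WT libraries. By edgeR 0 were called lower (2 at an unadjusted p below 0.05 and 0 by DESeq2), and the median was 0.16 [0.10, 0.21]. Cbl, a ubiquitin ligase that ends receptor signals, had 95.1 and 103 CPM in Adap-/- and 66.5 and 68.7 in WT cells, and Dusp6, a phosphatase of ERK, had 68.3 and 62.0 CPM in Adap-/- and 43.2 and 53.1 in WT cells. Their values without a library were 0.49 without Adap-/- replicate 2 (adjusted p = 0.0787) and 0.52 without WT replicate 1 (adjusted p = 0.0690) for Cbl and 0.37 without Adap-/- replicate 1 (adjusted p = 0.198), 0.51 without Adap-/- replicate 2 (adjusted p = 0.0752) and 0.30 without WT replicate 1 (adjusted p = 0.305) for Dusp6. Socs3, the gene with the most reads of the list, had 4616 and 4395 CPM in Adap-/- and 3905 and 4100.3 in WT cells (0.17, adjusted p = 0.480). Cish was at 54.2 and 58.0 CPM in Adap-/- and 42.6 and 23.9 in WT cells, on peaks shared with another gene, and Spry1 at 6.21 and 5.83 CPM in Adap-/- and 3.73 and 5.06 in WT cells. Neither was called, though Cish passed without WT replicate 1, at 1.23 (adjusted p = 0.0273), without either Adap-/- mock replicate, at 0.76 (adjusted p = 0.0315) and 0.76 (adjusted p = 0.0312), without WT mock replicate 2, at 0.75 (adjusted p = 0.0475), and with the LPS libraries alone (0.76, adjusted p = 0.0212). The list held 0 higher and 0 lower without Adap-/- replicate 2, 1 higher and 0 lower without WT replicate 1, 4 higher and 0 lower without Adap-/- mock replicate 1 or WT mock replicate 1 and 5 higher and 0 lower without WT mock replicate 2.

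Markers of classical (M1) activation were in part higher. Of 29 symbols 23 had a peak and 24 gene IDs were tested, 9 were called higher (37.5%) and 4 lower (16.7%), against 6.03% and 9.78% of all tested genes, with a median of 0.33 [0.17, 0.39]. Fpr1, a receptor for bacterial formyl peptides, had 2268 and 2616 CPM in Adap-/- and 986 and 1003 in WT cells (1.30, SE 0.12, adjusted p = 6.13e-06). Ptgs2, the inducible cyclooxygenase, had 8630.1 and 11761 CPM in Adap-/- and 5677 and 4928 in WT cells (0.94, adjusted p = 5.72e-04), and Slc7a11, the cystine importer, had 299 and 354 CPM in Adap-/- and 190.5 and 151 in WT cells (0.93, adjusted p = 8.65e-04). Each of these was higher in both Adap-/- libraries than in both WT libraries. Saa3, an acute-phase protein, had 775 and 1061 CPM in Adap-/- and 403 and 480.0 in WT cells (1.06, adjusted p = 0.00475; 0.81 without Adap-/- replicate 2 (adjusted p = 0.0648) and 0.93 without WT replicate 1 (adjusted p = 0.0617)), and Lcn2, which binds bacterial siderophores, had 29.3 and 32.1 CPM in Adap-/- and 9.63 and 13.7 in WT cells (1.40, adjusted p = 0.00334; 1.16 without WT replicate 1 (adjusted p = 0.0606)). Cd38, Fpr2 and the 2 gene IDs of Cfb, which share their peaks and so are 1 measurement, were the other higher genes. Cd38 was at or below 5.36 CPM in the 4 LPS libraries and lost its call without any 1 of them. Without WT replicate 2 the list held 5 higher genes.

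Other genes of the classical programme were lower or not called. Fcgr1, the high-affinity IgG receptor, which is itself induced by interferon, had 146 and 122 CPM in Adap-/- and 274 and 382 in WT cells (−1.28, SE 0.17, adjusted p = 2.04e-04). Il15ra had 313 and 300.0 CPM in Adap-/- and 529 and 494 in WT cells (−0.74, adjusted p = 1.11e-04). Both Adap-/- libraries of these genes were below both WT libraries. Nos2, the inducible nitric oxide synthase, had 3428 and 2612 CPM in Adap-/- and 3464 and 5063 in WT cells and was not called (−0.50, adjusted p = 0.109), its lowest WT value being just above its highest Adap-/- value, with −0.75 (adjusted p = 0.0475) without WT replicate 1, −0.20 without WT replicate 2 and −0.31 without Adap-/- replicate 2. Acod1, the itaconate enzyme and the gene with the most reads of the list, had 35819.8 and 36850.1 CPM in Adap-/- and 41742 and 42035 in WT cells and was not called (−0.21, adjusted p = 0.350).

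Markers of alternative (M2) activation were lower where they were called. Of 29 symbols 15 had a peak and 14 were tested. By edgeR 4 were called lower (28.6%) and 0 higher, against 9.78% and 6.03% of all tested genes. At an unadjusted p below 0.05 also 0 were higher, and DESeq2 called 0 higher and 4 lower. Their median was −0.08 [−0.24, −0.02]. Spp1, the gene for osteopontin, had 102 and 99.5 CPM in Adap-/- and 170.3 and 163 in WT cells (−0.73, adjusted p = 0.00181). Trem2, a lipid receptor, had 48.5 and 56.5 CPM in Adap-/- and 90.7 and 77.7 in WT cells (−0.69, adjusted p = 0.00364), and Dhrs3 and Clec7a, the beta-glucan receptor Dectin-1, had log2 fold changes of −0.56 and −0.37. In these 4 both Adap-/- libraries were below both WT libraries. Gpnmb, the gene with the most reads of the list and of all tested genes, had 22656 and 22463 CPM in Adap-/- and 28056 and 28691 in WT cells and was not called (−0.33, adjusted p = 0.111). Only Spp1 kept its call without each library, and the list held 0 higher and 2 lower without Adap-/- replicate 1 or Adap-/- replicate 2 or WT replicate 1.

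Macrophage identity genes were called lower in 7 of 23 cases (30.4%) and higher in 2 (8.70%), against 9.78% and 6.03% of all tested genes. Their median was −0.26 [−0.29, −0.16]. Lgals3, the gene for galectin-3, had 98.5 and 86.4 CPM in Adap-/- and 180.2 and 170.2 in WT cells, both Adap-/- libraries below both WT libraries (−0.92, adjusted p = 1.64e-04). Fcgr1 was lower as described, and Tlr4 and Cd14 were the higher genes. The remaining lower ones were Mertk, a receptor for apoptotic cells (−0.32, adjusted p = 0.0371), Spi1, the gene for PU.1 (−0.32, adjusted p = 0.0400), Tyrobp, the signalling adapter DAP12 (−0.43, adjusted p = 0.0192), and 2 gene IDs of Ctsd with shared peaks. Mertk, Spi1 and Tyrobp each lost the call without 3 or more of the libraries. The list held 2 higher and 2 lower without Adap-/- replicate 1, 1 higher and 2 lower without Adap-/- replicate 2, 2 higher and 3 lower without WT replicate 1 or Adap-/- mock replicate 1 or Adap-/- mock replicate 2, 1 higher and 4 lower without WT replicate 2 and 4 higher and 9 lower without WT mock replicate 1 or WT mock replicate 2.

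Of 30 listed partners of ADAP, itself included, 15 had a peak and 14 were tested, and beside Fyb1 only Itgal was called. That is 7.14% higher and 7.14% lower, against 6.03% and 9.78% of all tested genes. Itgal, which encodes the alpha chain of the integrin LFA-1, had 353 and 420.0 CPM in Adap-/- and 210.4 and 185 in WT cells, where each Adap-/- library was well above each WT library (0.96, SE 0.12, adjusted p = 7.85e-05). Sirpa, an inhibitory receptor and the gene with the most reads of the list, had 4439 and 4580.5 CPM in Adap-/- and 3563 and 3761 in WT cells (0.30, adjusted p = 0.0776). The median of the 14 was 0.11, and its range over the settings, −0.14 to 0.14, spans 0. The list held 2 higher and 1 lower without Adap-/- replicate 1 and 2 higher and 2 lower without WT mock replicate 1 or WT mock replicate 2.

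Among 51 integrin and adhesion genes 26 were tested, with a median of −0.03 [−0.07, 0.11]. Of these, 4 were called higher (15.4%) and 5 lower (19.2%), against 6.03% and 9.78% of all tested genes. Itga4, the alpha chain of VLA-4, had 114 and 144 CPM in Adap-/- and 78.6 and 74.1 in WT cells, all Adap-/- values being above all WT values (0.75, adjusted p = 0.00129). Ptk2b, the focal adhesion kinase PYK2, had 239 and 221 CPM in Adap-/- and 347 and 425 in WT cells, in the reverse order (−0.75, adjusted p = 3.66e-04). Itgal, Prg4 and Nedd9 were the other higher genes, and Pdpn, Actn1, Itgb5 and Selplg the other lower ones. Icam1, the ligand of LFA-1 and the gene with the most reads of the list, had 2585 and 2643 CPM in Adap-/- and 2574 and 2471 in WT cells on shared peaks and lay level (0.05, adjusted p = 0.796). Without WT replicate 2 the test called 3 and 3 members of this list higher and lower.

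Of 61 actin regulators 40 gene IDs were tested. Msn (0.40, adjusted p = 0.0338) and Myh9 (0.40, adjusted p = 0.0449) were called higher, 5.0% against 6.03% of all tested genes. By edgeR 0 were called lower, against 9.78% (4 lower at an unadjusted p below 0.05), while DESeq2 called 0 in either direction. Both genes were higher in both Adap-/- libraries. Msn, which encodes moesin, a link between membrane and actin, had 182 and 227 CPM in Adap-/- and 153 and 155 in WT cells, and Myh9 encodes the heavy chain of non-muscle myosin IIA. The median was −0.06 [−0.08, 0.06]. Without Adap-/- replicate 2 neither call was left, and 0 were higher and 1 lower without WT replicate 1 or 2. With 1 Adap-/- mock library left out 1 was higher and 0 lower, and with 1 WT mock library left out 3 were higher and 1 lower.

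TGF-beta genes gave 2 higher (9.52%) and 1 lower call (4.76%) among 21 tested of 38, against 6.03% and 9.78% of all tested genes. Their median was 0.09 [−0.12, 0.20], and −0.12 without WT replicate 1. Lrrc32, described with the ranked genes, was the lower one, while Ltbp1, which stores latent TGF-beta in the matrix, had a log2 fold change of 1.66, adjusted p = 0.0110. Ski, a repressor of SMAD signalling, had 106 and 116 CPM in Adap-/- and 72.7 and 80.2 in WT cells (0.53, adjusted p = 0.00489), and both genes were higher in both Adap-/- libraries. Nrros, the anchor of latent TGF-beta in myeloid cells and the gene with the most reads of the list, had 621 and 561 CPM in Adap-/- and 653 and 749 in WT cells (−0.24, adjusted p = 0.137). Without Adap-/- replicate 2 or WT replicate 1 neither higher call was left, and Ski was 0.47 without Adap-/- replicate 2 (adjusted p = 0.0545) and 0.46 without WT replicate 1 (adjusted p = 0.0660). Without Adap-/- replicate 1 the list held 4 higher genes.

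Receptors with sialic acid-binding, Ig-like or lectin domains held many called genes. Of 53 genes 22 were tested, 5 were called higher (22.7%) and 9 lower (40.9%), against 6.03% and 9.78% of all tested genes, with a median of −0.10 [−0.36, −0.01]. Cd300lb, an activating receptor of myeloid cells and a gene that the study names, had 39.5 and 41.9 CPM in Adap-/- and 96.9 and 92.9 in WT cells (−1.22, SE 0.12, adjusted p = 1.29e-05). On its 4 peaks the log2 ratio was between −1.74 and −0.71. Cd300a, an inhibitory member of the same cluster, had 43.4 and 33.5 CPM in Adap-/- and 65.3 and 59.3 in WT cells (−0.68, adjusted p = 0.00379). For both genes the Adap-/- libraries were below the WT libraries. Fcgr4, another activating IgG receptor, was lower too, with 140.2 and 110.5 CPM in Adap-/- and 259 and 262 in WT cells (−1.05, adjusted p = 2.86e-04). Treml2, Trem2, Tyrobp, Fcgr1, Clec7a and a gene on chromosome 17 that the table names Cd300lf but describes as B430306N03 complete the lower genes.

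Higher genes of this list were Cd33, Clec5a, Cd5l, Pilra and Pilrb2. Clec5a, an activating lectin that signals through DAP12, had 74.5 and 76.6 CPM in Adap-/- and 52.2 and 43.4 in WT cells (0.65, adjusted p = 0.00585). Cd33, an inhibitory siglec, had 256 and 281 CPM in Adap-/- and 202 and 153 in WT cells (0.59, adjusted p = 0.0138). Both Adap-/- libraries of each lay above both WT libraries. Clec4e, the receptor Mincle and the gene with the most reads of the list, had 24568 and 25812 CPM in Adap-/- and 24486 and 21493 in WT cells (0.13, adjusted p = 0.621). The values without a library were 0.53 without WT replicate 2 (adjusted p = 0.0610) for Clec5a, 0.52 without Adap-/- replicate 2 (adjusted p = 0.101) and 0.41 without WT replicate 2 (adjusted p = 0.146) for Cd33, and −0.52 without Adap-/- replicate 2 (adjusted p = 0.0667) for Cd300a. The list held 2 higher and 5 lower without Adap-/- replicate 2, 3 higher and 5 lower without WT replicate 1 and 3 higher and 8 lower without WT replicate 2.

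Of 63 genes of cholesterol and lipid transport 22 were tested, 4 were called higher (18.2%, against 6.03% of all tested genes) and 1 lower, with a median of 0.19 [0.19, 0.24]. Abcc1, an exporter of glutathione conjugates and leukotriene C4, had 554 and 656 CPM in Adap-/- and 337 and 389 in WT cells, without overlap (0.74, adjusted p = 6.41e-04). Abca1, which loads cholesterol onto apolipoprotein A-I, had 426 and 396 CPM in Adap-/- and 295 and 345 in WT cells (0.36, adjusted p = 0.0228; 0.31 without Adap-/- replicate 1 (adjusted p = 0.149), 0.42 without Adap-/- replicate 2 (adjusted p = 0.0594) and 0.25 without WT replicate 1 (adjusted p = 0.249)). Sqle was also called higher and Fabp5 lower. The list held 2 higher and 0 lower without Adap-/- replicate 1 or Adap-/- replicate 2, 1 higher and 0 lower without WT replicate 1, 3 higher and 0 lower without WT replicate 2 and 4 higher and 0 lower without Adap-/- mock replicate 1 or Adap-/- mock replicate 2. Of 30 glycolysis genes 10 were tested, with a median of −0.10 [−0.15, −0.04]. The calls were 10.0% higher and 10.0% lower, against 6.03% and 9.78% of all tested genes. Beside the shared Eno1 peak, Slc16a3, the lactate exporter MCT4, was called lower with 33.0 and 27.7 CPM in Adap-/- and 45.1 and 62.9 in WT cells (−0.81, adjusted p = 0.00449; −0.70 without Adap-/- replicate 2 (adjusted p = 0.0534) and −0.56 without WT replicate 2 (adjusted p = 0.0661)).

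Genes of oxidative stress and glutathione gave 3 higher (23.1%) and 2 lower calls (15.4%) among 13 tested of 41. Over all tested genes the shares were 6.03% and 9.78%. The median of the list was −0.08 [−0.08, 0.05], or −0.08 with Gstm2 at its bound. Slc7a11 was higher as given above, and Osgin1, a target of NRF2, had 15.5 and 9.11 CPM in Adap-/- and 4.35 and 5.42 in WT cells (1.37, adjusted p = 0.0109; 0.91 without Adap-/- replicate 1 (adjusted p = 0.165) and 1.21 without WT replicate 1 (adjusted p = 0.107)). Gstm2 had 8 and 5 counts in Adap-/- and 0 in both WT libraries, which allows the statement that it was at least 2.02-fold higher, against a floor of 3 counts per library, and it lost its call without any 1 of the LPS libraries. Gpx1, which removes peroxides, had 29.6 and 27.3 CPM in Adap-/- and 48.2 and 41.9 in WT cells (−0.66, adjusted p = 0.0124; −0.61 without Adap-/- replicate 2 (adjusted p = 0.0924) and −0.55 without WT replicate 1 (adjusted p = 0.124)), and Keap1 was the other lower gene. The list held 1 higher and 2 lower without Adap-/- replicate 1, 2 higher and 1 lower without Adap-/- replicate 2 and 1 higher and 1 lower without WT replicate 1.

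The unfolded protein and heat shock list had 20 gene IDs tested, from 38 symbols, and a median of −0.05 [−0.08, 0.02]. Atf3, a stress-induced repressor of inflammatory genes, was called lower with 1977 and 1697 CPM in Adap-/- and 3412 and 3038 in WT cells, its Adap-/- libraries being below both WT libraries (−0.81, SE 0.11, adjusted p = 2.52e-04). That is 5.0% lower, against 9.78% of all tested genes. By edgeR 0 were higher, against 6.03% (1 at an unadjusted p below 0.05, 0 by DESeq2). Immediate-early and AP-1 factors had 4 higher (19.0%) and 3 lower calls (14.3%) among 21 tested of 31, against 6.03% and 9.78% of all tested genes. Their median was 0.03 [−0.10, 0.08]. Fosl2, a partner of JUN proteins, had 97.6 and 112 CPM in Adap-/- and 54.1 and 58.6 in WT cells (0.89, adjusted p = 3.66e-04), and Csrnp1, whose peak also counts for Cx3cr1, had 193 and 197 CPM in Adap-/- and 317 and 296 in WT cells (−0.65, adjusted p = 4.03e-04). The genotypes did not overlap in either gene. Ier3, Egr1 and Ier2 were also higher and Mafk lower. The list held 2 higher and 3 lower without Adap-/- replicate 2 or WT replicate 2.

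A list of genes that answer to RNA handling and dissociation, which overlaps the last one, had 9 of 15 genes tested. Egr1 and Ier2 were called higher (22.2%) and Atf3 lower (11.1%), against 6.03% and 9.78% of all tested genes. The median of the list was −0.13 [−0.21, −0.06]. The summed levels were 11054 and 10593 CPM in Adap-/- and 12219 and 11809 CPM in WT macrophages, and Junb had the most reads over the 8 input libraries. Without Adap-/- replicate 2 or WT replicate 2 neither higher call was left, and without either WT mock replicate 3 were lower. Whether handling had a part in any result was not tested. Of 18 histone genes 1 was tested, H2BC4, with 6.49 and 9.84 CPM in Adap-/- and 24.2 and 17.7 in WT cells, and it was called lower (−1.40, adjusted p = 0.00375; −1.10 without Adap-/- replicate 1 (adjusted p = 0.0537) and −1.14 without WT replicate 1 (adjusted p = 0.0617)). Histone mRNA lacks a poly(A) tail and is made in S phase.

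Patterning factors held 1 higher and 2 lower calls. Of 33 homeobox, POU and other patterning genes 14 had a peak and 11 were tested, with a median of 0.23 [0.07, 0.25]. The calls were 9.09% higher and 18.2% lower, against 6.03% and 9.78% of all tested genes. Pou3f1, a POU-domain factor that the study names, had 26.0 and 18.2 CPM in Adap-/- and 83.6 and 57.8 in WT cells, and its 3 peaks gave log2 ratios between −1.97 and −1.37. Both Adap-/- libraries were below both WT libraries (−1.66, SE 0.21, adjusted p = 1.40e-04). Lhx2, a LIM-homeobox factor, had 20.9 and 16.0 CPM in Adap-/- and 43.2 and 44.1 in WT cells, in the same order (−1.23, SE 0.23, adjusted p = 0.00224). Runx1 was the higher gene, and its call was lost without Adap-/- replicate 1 or either WT replicate (0 higher).

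Cell cycle genes were few. Of 50 listed, 7 were measured and tested, 2 were higher (28.6%) and 2 lower (28.6%), against 6.03% and 9.78% of all tested genes. Beside Mki67, Mcm3, part of the replicative helicase, was higher with 39.2 and 32.1 CPM in Adap-/- and 14.9 and 14.8 in WT cells (1.27, SE 0.20, adjusted p = 5.29e-04). Tpx2, a spindle factor, was lower with 22.3 and 10.6 CPM in Adap-/- and 42.9 and 44.5 in WT cells (−1.37, SE 0.27, adjusted p = 0.00292). All 3 genes had non-overlapping genotypes, so these proliferation markers did not share a direction. Cdk4, whose peak is shared, had 198 and 187 CPM in Adap-/- and 238 and 240.4 in WT cells (−0.31, adjusted p = 0.0462), and its call was lost without any 1 of the 8 libraries. The median of the list was −0.30 [−0.31, 0.13], and 0.10 without WT replicate 1.

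Genes of the m6A machinery held 1 higher and 1 lower call. Of 23 writers, erasers and readers 13 were tested, with 7.69% higher and 7.69% lower, against 6.03% and 9.78% of all tested genes. Their median was 0.08 [0.06, 0.14]. Zc3h13, a subunit of the writer complex, had 78.4 and 98.1 CPM in Adap-/- and 57.5 and 63.3 in WT cells (0.54, adjusted p = 0.0145). Ythdf1, a reader tied to translation and the gene with the most reads of the list, had 218 and 249 CPM in Adap-/- and 319 and 342 in WT cells (−0.50, adjusted p = 0.00329). In both genes the genotypes did not overlap, but single libraries carried the calls, with 0.38 without Adap-/- replicate 2 (adjusted p = 0.174) and 0.47 without WT replicate 1 (adjusted p = 0.130) for Zc3h13 and −0.41 without Adap-/- replicate 1 (adjusted p = 0.0511) for Ythdf1. Alkbh5, an eraser, had 64.3 and 54.7 CPM in Adap-/- and 64.0 and 68.0 in WT cells (−0.14, adjusted p = 0.513), and Wtap, which holds the writer complex together, had 243 and 233 CPM in Adap-/- and 261 and 302 in WT cells (−0.24, adjusted p = 0.129). The readers Ythdf2 (0.15), Ythdf3 (0.26), Ythdc1 (0.17) and Hnrnpa2b1 (0.08) and the writer genes Virma (0.20), Rbm15 (0.04), Rbm15b (−0.17), Cbll1 (0.12) and Mettl16 (−0.38) were not called, with adjusted p-values from 0.0898 to 0.918.

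Gene families were picked by their symbols as well. Cytosolic ribosomal protein genes numbered 20 by the symbol pattern, of which 5 (25.0%) were called lower and 0 higher by edgeR (0 at an unadjusted p below 0.05; DESeq2 3 lower and 0 higher), with a median of −0.35. The pattern also catches a regulator and kinases that are not ribosomal proteins, and without them 4 of 16 were lower. Rpl29, the one with the most reads, had 892 and 807 CPM in Adap-/- and 1196 and 1033 in WT cells, both Adap-/- libraries below both WT libraries (−0.39, adjusted p = 0.0168). RPL31, RPL32 and RPS14 were the others. Mitochondrial ribosomal proteins gave 7 lower (31.8%) and 0 higher of 22 (0 higher at an unadjusted p below 0.05; DESeq2 2 lower and 0 higher), with a median of −0.33, and respiratory chain subunits 3 lower (12.5%, against 9.78% of all tested genes) and 0 higher of 24 (0 higher at an unadjusted p below 0.05; DESeq2 2 lower and 0 higher), with −0.16. The lower genes of the respiratory chain pattern were Cox7a2l, Uqcrh and Sdhaf2. This pattern also catches assembly factors that are not subunits, such as Sdhaf2. The 3 medians stayed negative under each scaling and each left-out library, but the calls did not. No cytosolic ribosomal protein gene was lower by edgeR without WT replicate 1 (0), and 2 were without Adap-/- replicate 1 or 2. For the mitochondrial ribosome the number was 0 without Adap-/- replicate 2 or WT replicate 1, 2 without Adap-/- replicate 1, 4 without WT replicate 2 or Adap-/- mock replicate 1 and 3 without Adap-/- mock replicate 2. For the respiratory chain it was 0 without Adap-/- replicate 2 or WT replicate 1. Rpl29 was −0.32 without Adap-/- replicate 2 (adjusted p = 0.184) and −0.28 without WT replicate 1 (adjusted p = 0.196). Of 26 zinc-finger genes named Zfp 0 were higher and 1 lower (3.85%). Among 81 solute carriers 5 were higher (6.17%) and 5 lower (6.17%), against 6.03% and 9.78% of all tested genes.

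Because a targeted gene can carry linked DNA of the donor strain, genes near Fyb1 were looked at. Within 5 Mb of Fyb1, 1 of 10 tested genes was higher and 4 were lower, and within 20 Mb 1 of 19 (5.26%) was higher and 5 (26.3%) lower, against 6.03% and 9.78% of all tested genes, with a median of 0.20. On the whole of chromosome 15, 19 of 174 were higher and 10 lower. Rai14, an actin-binding protein, had 344 and 346 CPM in Adap-/- and 167 and 167 in WT cells, its Adap-/- libraries being far above both WT libraries (1.05, SE 0.09, adjusted p = 5.36e-06). CCDC152 and ENSMUSG00000064373 share 1 peak, with 94.5 and 90.8 CPM in Adap-/- and 171 and 194 in WT cells (−0.98, adjusted p = 0.00178). ENSMUSG00000045763, described as Basp1, had 977 and 856 CPM in Adap-/- and 1523 and 1395 in WT cells (−0.67, adjusted p = 6.47e-04), again with both Adap-/- libraries below both WT libraries. ENSMUSG00000089647, counted on a peak of Fyb1 itself, and Il7r were the other lower genes. Linked DNA and the loss of ADAP cannot be told apart in this design.

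Mock-treated cells gave the background for the genotype difference, measured in the other 4 input libraries. Without LPS, 413 genes (8.71%) were called higher and 410 (8.65%) lower in Adap-/- macrophages, together 823 (17.4%). Of the 286 genes higher after LPS, 135 were also called higher without it, which is 47.2% of the first list and 32.7% of the second. Of the 464 lower genes 190 were lower in both, or 40.9% and 46.3%. The sign was the same without LPS for 256 of the 286 and 391 of the 464. Pdpn was among the shared genes, with 83.2 and 78.6 CPM in Adap-/- and 309 and 322 in WT cells without LPS (−1.96, adjusted p = 1.73e-08), as was Il1rn, with 123 and 139 CPM in Adap-/- and 318 and 304 in WT cells (−1.25, adjusted p = 1.37e-05). Prg4 had 155 and 311 CPM in Adap-/- and 50.9 and 27.2 in WT cells (2.57, adjusted p = 2.39e-04). For these genes the genotypes did not overlap in either condition, and the mock calls held with each library left out. The mock counts too leaned on single libraries, with 160 higher and 148 lower genes without Adap-/- mock replicate 2, 297 and 237 without Adap-/- mock replicate 1, and 248 and 189 without WT mock replicate 2.

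The difference between the 2 genotype comparisons was tested directly as an interaction, and 78 genes (1.64%) passed. In 61 of them the difference was lower after LPS than without, and 17 of those 61 were interferon-stimulated genes, against 80 of all 4742 tested genes. In the other 17, none of them interferon-stimulated, it was higher, but without WT mock replicate 1 it was higher in 40 genes, 15 of them interferon-stimulated. Of the 61, 55 were in the group with the highest levels, which also holds 63 of the 80 interferon-stimulated genes. Called lower after LPS were 27 of the 61, called higher without LPS 45, and 11 were both, of which 8 are interferon-stimulated. Ifit1 (ENSMUSG00000034459) shows the pattern. Without LPS it had 119 and 137 CPM in Adap-/- and 61.6 and 95.7 in WT cells, so that the Adap-/- libraries were the higher ones (0.71, adjusted p = 0.00997, and 0.123 without Adap-/- mock replicate 2), against a loss after LPS, and the interaction was −1.56 (adjusted p = 0.00179). The interaction count moved with single libraries, from 29 without Adap-/- mock replicate 2 to 127 without WT mock replicate 1. It was 42 without either Adap-/- LPS replicate, 46 without WT LPS replicate 1, 40 without WT LPS replicate 2 and 48 without Adap-/- mock replicate 1.

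As a list, the 80 interferon-stimulated genes had a median of 0.01 without LPS, with 14 called higher and 8 lower. Their summed level without LPS was 8573 and 8847 CPM in Adap-/- and 7295 and 10527 CPM in WT macrophages, far below the levels after LPS in both genotypes. The WT mock replicates differed from each other in these genes by a median of −0.32 (log2, replicate 1 minus 2). Without WT mock replicate 1 the mock comparison gave 11 higher, 24 lower and a median of −0.12, and without WT mock replicate 2 it gave 17 higher, 2 lower and a median of 0.20. The mock values of this list therefore depended on which WT library was used, while the LPS values share with these libraries only the count filter, the scaling and the estimate of spread.

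**Figure D4:**
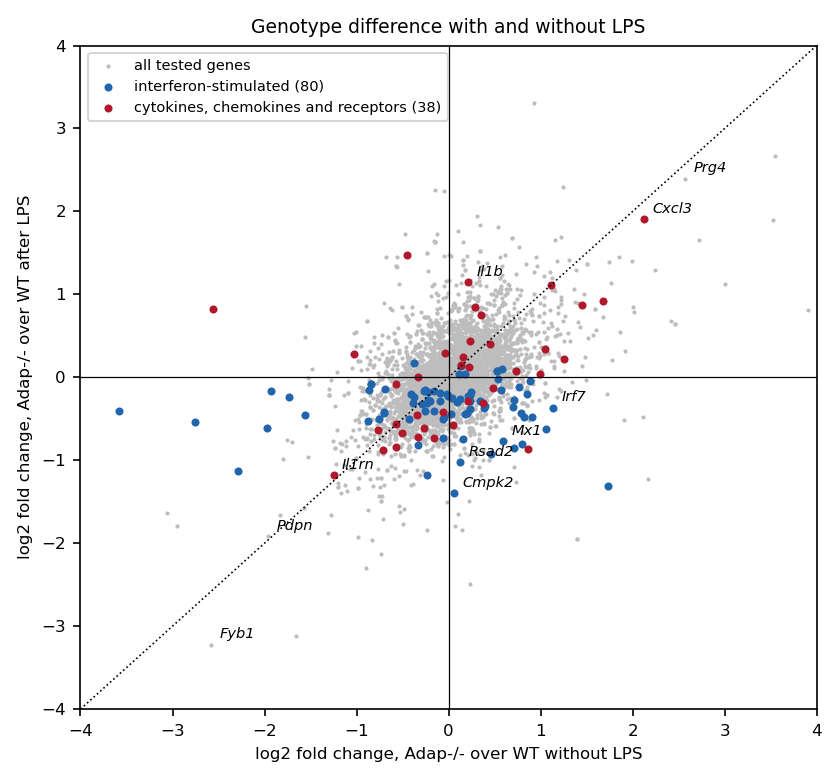
Log2 fold change of Adap-/- over WT without LPS (x axis) and after LPS (y axis) for each tested gene, with 80 interferon-stimulated genes in blue and 38 cytokine and chemokine genes in red. The axes end at 4, which leaves out 7 genes, and most interferon-stimulated genes lie below 0 after LPS while they scatter around 0 without it.

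The plot of all lists sets these results side by side. Against 6.03% higher and 9.78% lower over all tested genes, the share of lower genes was 33.8% among interferon-stimulated genes, 41.2% among the chemokines and their receptors and 40.9% among the lectin and Ig-like receptors. The share of higher genes was 37.5% among the M1 markers and 28.6% among the cytokines, which also had 28.6% lower. For the M1 markers the medians were 0.33 after LPS and 0.48 without it. These shares are descriptions, since lists of correlated genes were not tested against each other.

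**Figure D5:**
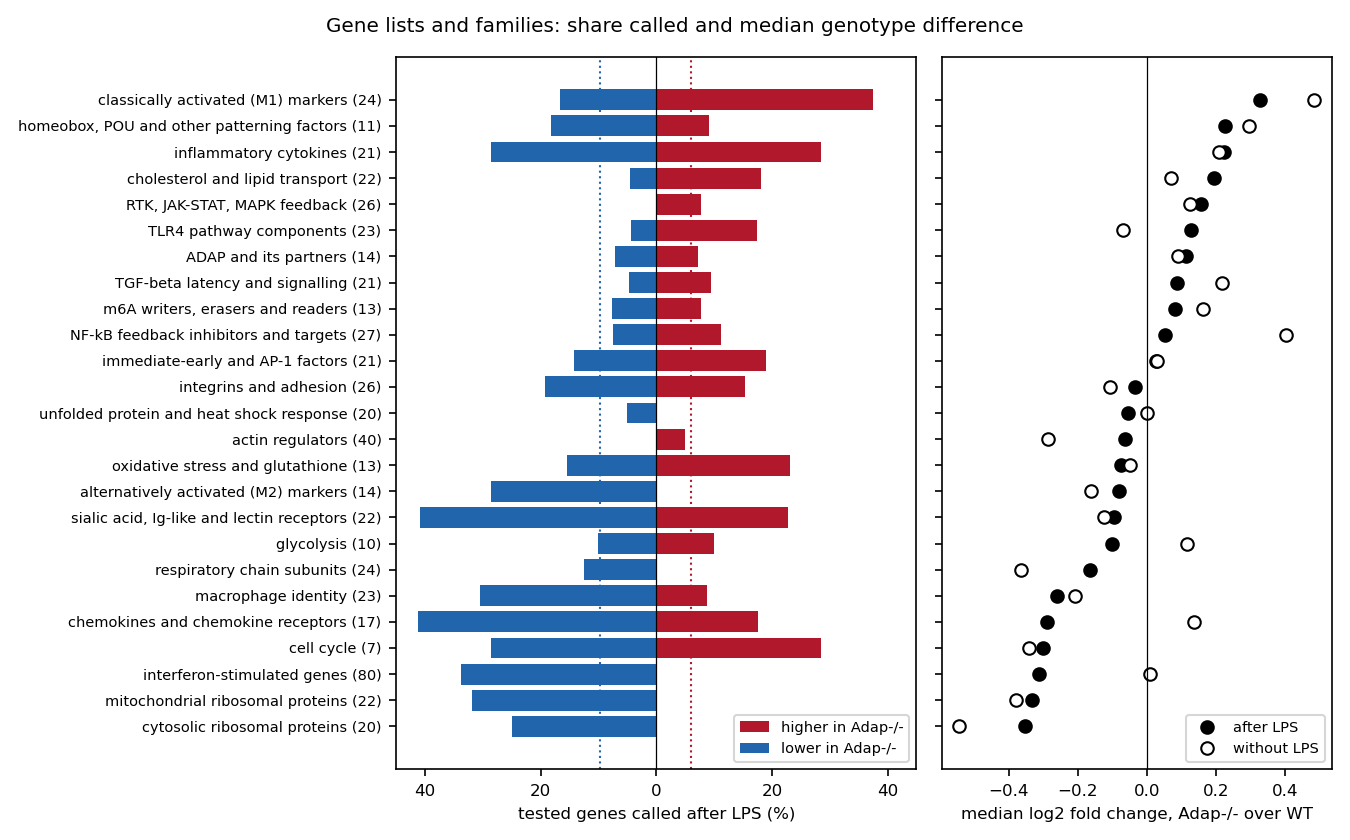
Share of tested genes called higher or lower in Adap-/- macrophages after LPS (left) for 22 pathway lists and 3 gene families, with dotted lines at the shares over all tested genes (6.03% and 9.78%), and the median log2 fold change of each list after and without LPS (right). Interferon-stimulated genes have a median of −0.31 after LPS and 0.01 without it.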

How the data were processed

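The authors deposited a table with the read count of each library on merged m6A peaks, without normalization, made with Bowtie2 2.2.8, MACS2 2.1.2 and DiffBind 2.8 on GRCm39 per the labels. Its 8094 lines hold 7069 distinct peaks, of which 925 are listed for more than 1 gene. The input count of each gene was summed over its peaks, shared ones included. The 8 input libraries were fitted together in R 4.3.3 with edgeR 4.0.16 (TMM, filterByExpr set to 10 for min.count and 15 for min.total.count, 1 mean per group, quasi-likelihood test, Benjamini-Hochberg adjustment), which left out 201 genes. The mock libraries enter for a common filter, scaling and estimate of spread. Contrasts were Adap-/- against WT after LPS, the same without LPS, and their difference. Standard errors come from the fold change and the F statistic, and so include the estimated spread between libraries. Floors cover counting error only, since molecules were not marked before PCR.

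Genes are named by rule: Fyb1 and genes that the study names; the first 14 higher and 14 lower by log2 fold change among called genes without overlap and with at least 10 CPM in the higher group; of each pathway list up to 4 called members and the one with the highest level; of each marker list up to 3. A few genes that meet these rules are not reported here. Members and lists were chosen with earlier results of these data known. Lists are given by counts and medians, without a test. Alternatives were the Wald test of DESeq2 1.42.0, scaling by upper quartile or RLE, other count filters, the replicate number as a block, unshared peaks, only the LPS libraries, other thresholds, and each library left out. Captured libraries were not used. The steps were tested on simulated data. Motifs were searched in RefSeq promoters.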

Additional observations from a re-analysis of the deposited data

Results flagged for a closer look

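The genotype difference after LPS was tested against that without LPS, and 78 genes passed in edgeR. The values below are the log2 genotype difference after LPS minus that without LPS, for the named genes among them. For antiviral genes it was lower after LPS: Ifit3 (ENSMUSG00000062488) −3.04, Ifit1 (ENSMUSG00000034459) −1.56, Irf7 −1.501, Cmpk2 −1.46, Ifit2 −1.39, Ifih1 −1.38, Mx1 −1.36, Oasl1 −1.31, Rsad2 −1.15 and Isg15 −0.91. It was lower also for the 2 gene IDs of Cfb with −1.83 each, Cd69 with −1.42, Clec4e with −1.32, Il15ra with −1.07, Slc2a6 with −0.99, Ccl5 with −0.95, Fpr1 with −0.95, Cd40 with −0.85 and Acod1 with −0.80. It was higher after LPS for Phlda1 and ENSMUSG00000100113, which share their peaks, with 1.19 each, and for Gadd45a with 1.09. Cfb, complement factor B, illustrates the reading of these values, since it was higher in Adap-/- cells in both conditions, with 266 and 367 CPM in Adap-/- and 66.3 and 48.2 in WT cells without LPS and 1259 and 1342 CPM in Adap-/- and 878 and 794 in WT cells after it. Of these 23 gene IDs, 12 kept the call with each of the 8 libraries left out, namely both of Cfb and Cmpk2, Gadd45a, Ifih1, Ifit1, Ifit3, Il15ra, Irf7, Oasl1, Rsad2 and Slc2a6. The number of all such genes was 29 without Adap-/- mock replicate 2 and 127 without WT mock replicate 1. Without the latter, 15 interferon-stimulated genes passed with a higher difference after LPS, against 0 with all libraries. No cause of these differences was tested.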

How the results depend on the processing

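Scaling by RLE or upper quartile, no count filter, unshared peaks, the replicate block and the LPS libraries alone left each number of called genes within 1.5 times the reported one. DESeq2 called 172 genes higher after LPS in place of 286, and 264 lower without LPS in place of 410. At an unadjusted p below 0.05, 582 were higher and 775 lower after LPS. At 1.5-fold 155 were higher and 213 lower, and with at least 10 counts in every input library 42 were higher over 2-fold. Fewer genes were tested there; the other causes were not tested. With 1 library left out, whose lone partner is assumed to vary like the other groups, the genes higher after LPS numbered 124 to 379 and the lower ones 230 to 504; over 2-fold 37 to 69 and 42 to 68. The interaction gave 29 to 127, and without LPS 160 to 424 were higher and 148 to 458 lower.

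Of 2263 values of 144 called named genes, 1991 kept direction and call, 272 kept the direction only and 0 changed sign. Of 646 values of 41 genes that were not called, 47 passed the test and 11 changed sign without a call. The latter were log2 fold changes with 1 library left out: Cbll1 −0.12 to 0.30, Ccr7 −0.52 to 0.50, Hnrnpa2b1 −0.0181 to 0.20, Il6 −0.0243 to 0.67, Mettl16 −1.72 to 0.19, Pdgfra −0.43 to 0.65 and Rbm15 −0.16 to 0.23. DESeq2 gave no adjusted p for some genes with low counts, among them Adgb and Gstm2. Of 1186 genes below 13.8 CPM 26 were called higher and 12 lower. The peaks cover part of each transcript.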
